A study of Mus with 2 samples.

Results

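Integrins and the adhesion molecules they meet were followed in bone marrow derived macrophages (BMDMs) that had received GW4064, a synthetic agonist of the farnesoid X receptor (FXR), or its solvent DMSO. The set was defined by gene symbol, with no measured value in the rule but with earlier results of these data known, and held 34 genes: 26 integrin chains, 4 immunoglobulin-type molecules, 2 selectins, the selectin ligand Selplg and the hyaluronan receptor Cd44. They stood among 20060 genes whose probes could be named through a RefSeq accession. Of the 34 members, 32 had at least 1 such probe, 26 gave a signal well above background on at least 1 array, 6 did not, and Itga10 and Itgae could not be matched to a probe and are left aside here.

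The cells came from male C57BL6/J mice, 10 weeks old, and had been grown for 7 d with 10 ng/mL of M-CSF. M2 conditions, meaning culture with 10 ng/mL of IL-4, were shared by both groups and lasted 24 hr. One culture received DMSO and the other 10 µM of GW4064 during that time, and the question was which genes differed under the agonist. Each condition was measured on 1 array, so there is no replicate error and no test for any gene, and the number of mice behind each culture is not given in the sources used here.

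An integrin is a pair of 1 alpha and 1 beta chain that spans the membrane, binds matrix or a counter-receptor outside the cell and is tied to actin inside through talin and kindlin. Leukocytes carry the beta 2 integrins, among them CD11b (Itgam) and CD11c (Itgax), which are used for firm adhesion and uptake of complement-coated particles. Selectins catch glycan ligands such as PSGL-1 (Selplg) on passing leukocytes, and the ICAM and VCAM molecules are the counter-receptors on which integrins arrest them.

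A value below is the processed signal of a probe, which is the brightness of its spot after the scanner software removed the background. A log2 difference is GW4064 minus DMSO after each array was set to its 75th percentile, a signal of 1209 with DMSO and 1265 with GW4064. Some probes passed the background call on a single array. Their difference is called a bound. It carries the words "at least" where the uncalled array's signal was raised to the lowest signal called there. Where that signal already lay above this level, the measured difference is given and is not a minimum. The spread between spots was read from probes printed 10 times. The SD of the log2 difference over their copies had a median of 0.071 for signals over 1000, 0.092 from 100 to 1000, 0.20 from 30 to 100 and 0.33 under 30. It covers the printing and reading of 1 RNA sample and not the variation between cultures. The log2 differences of probes of 1 gene had a median range of 0.12 over 3240 genes that had 2 or more probes well above background on both arrays. Areas of the slide where 2 or more other spots within 300 µm differed 8-fold or more are called damaged areas, and 7 members had a probe there. Such areas held 16.5% of the spots. The name rests on these differences alone, dim spots included, and damage itself was not tested. Macrophage markers were bright on both arrays. Of 12 listed, 11 had a matched probe, their signals ran from 1099 to 209471 with DMSO and from 1195 to 218097 with GW4064, and their median log2 difference was 0.055.

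Most adhesion genes differed little and more of them were lower than higher. Of the 26 measured members, 17 were lower and 9 higher with GW4064, and their median log2 difference was -0.28 against 0.0068 over all 13532 measured genes, of which 48.2% were lower. Differences reached 2-fold in 5 members. Selp and Sele were higher and Itga11, Itga2 and Itga2b were lower, while the other 21 stayed within 2-fold. This made 2 members higher where 2.04% of all measured genes were, and 3 lower where 2.71% were. All 5 had low signals, and the share of genes past 2-fold was larger among dim genes, as given further on. With the spike-in control RNA as the common level instead, log2 differences were lower by a constant of 0.19. Bounds that would have changed sign were held at 0 instead. This gave 211 genes higher and 522 lower against 276 and 367, and a member median of -0.47. The member median minus that of all genes was -0.29 with either scaling. With the spike-in RNA Itgam, Itga6, Itgb2 and Icam2 changed from higher to lower and the value for Itgad fell to 0.

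**Figure D1:**
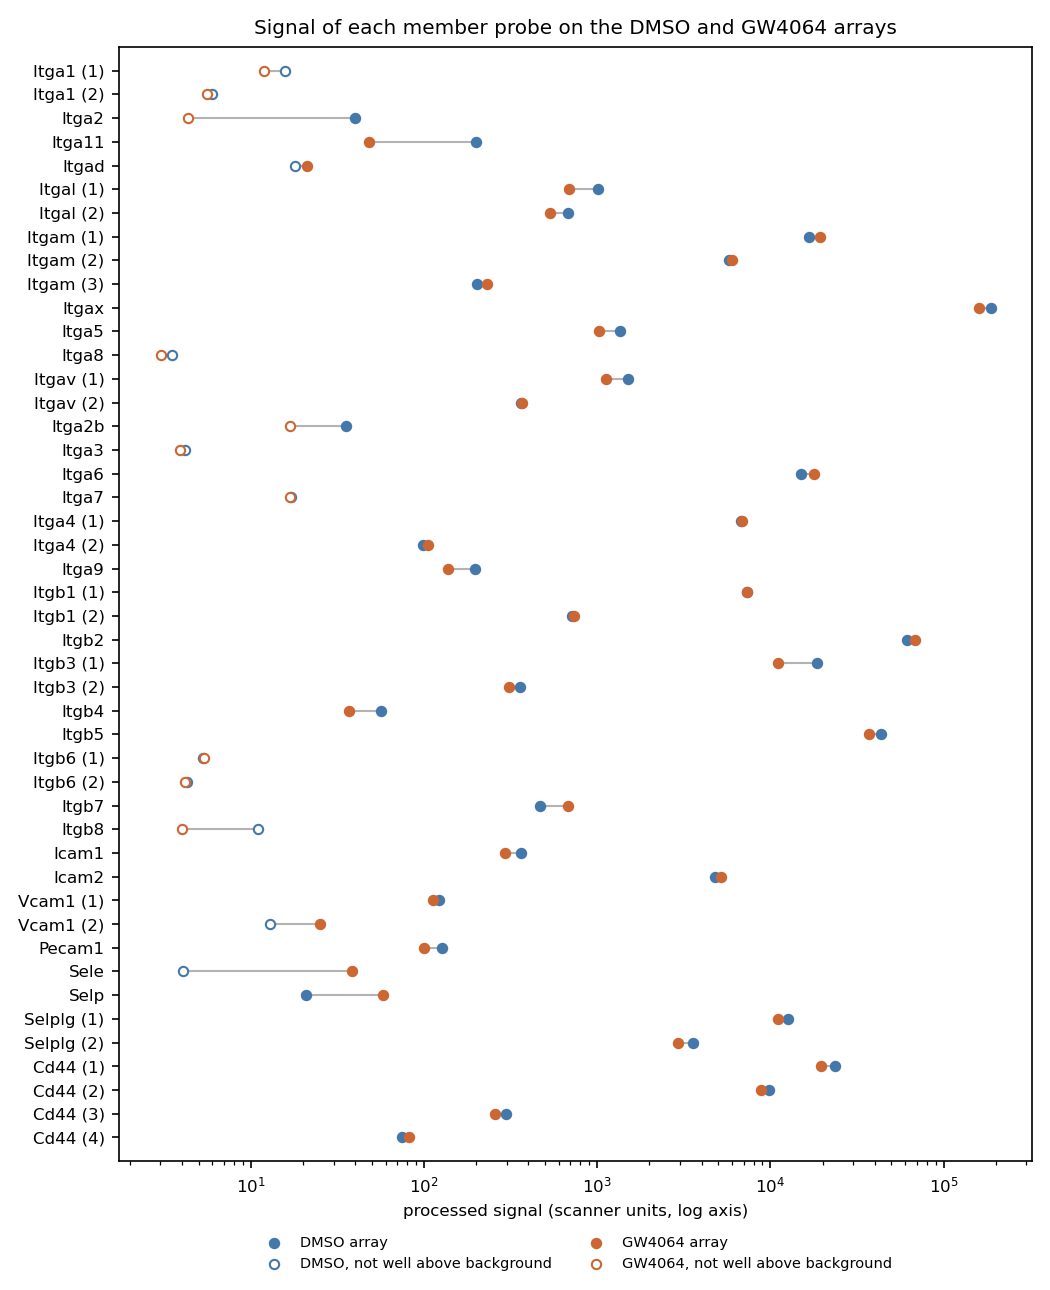
Processed signal of each probe matched to a member, on a log axis in scanner units, with the DMSO array in blue and the GW4064 array in orange. Open circles mark spots not well above background. Itga11, Itga2 and Itga2b have the DMSO point clearly to the right and Sele and Selp the GW4064 point, while the probes over a signal of 1000 lie close together.

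**Figure D2:**
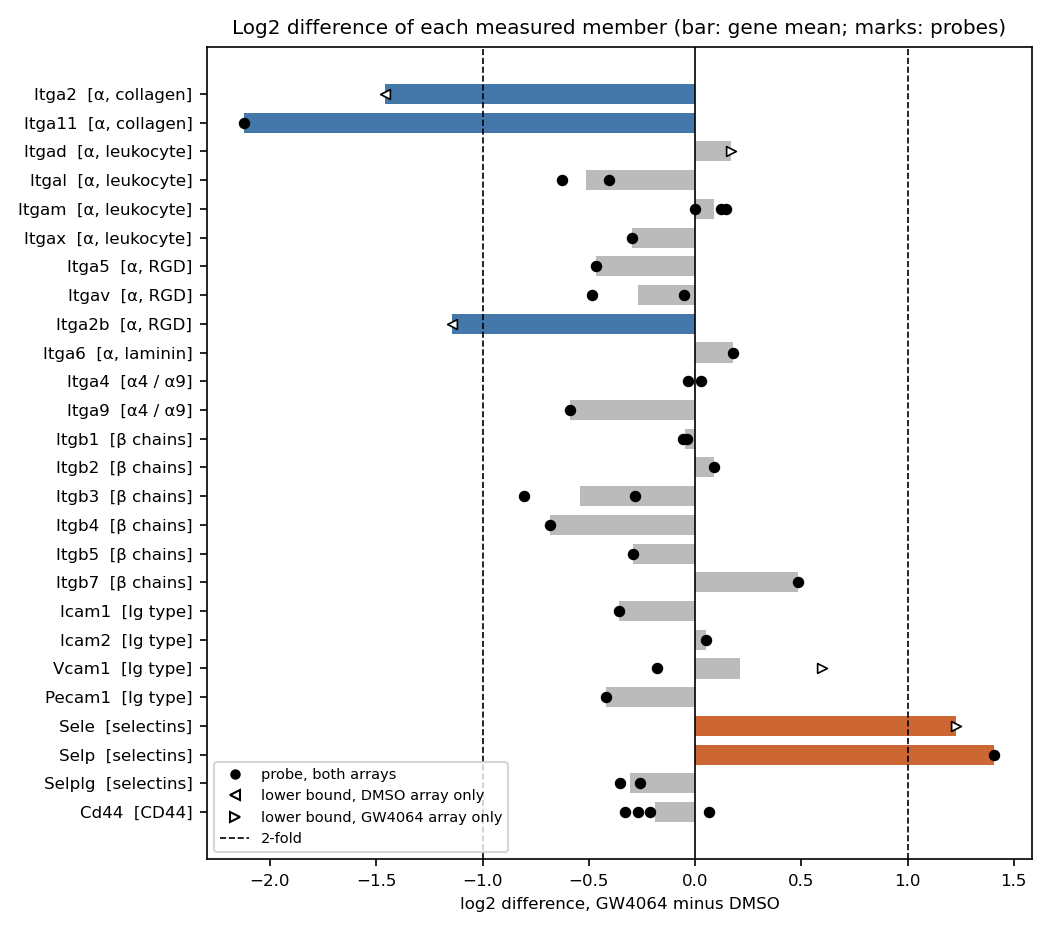
Log2 difference of each of the 26 measured members, GW4064 minus DMSO. Bars are gene means, filled circles are probes well above background on both arrays, open triangles are bounds from probes called on a single array, and dashed lines mark 2-fold. Bars past the dashed lines are those of Itga2, Itga11 and Itga2b on the lower side and of Sele and Selp on the higher side.

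The collagen-binding alpha chains gave the largest decrease among the members. Itga11 encodes the alpha chain of a receptor for fibrillar collagen that is known from fibroblasts. The DMSO array gave a signal of 200.5 and the GW4064 array 48.3, both well above background, a log2 difference of -2.12 or 4.35-fold lower. This was the 62nd lowest value of 13532 genes and 10.5 times the median SD over spots at that level, 0.20. It was read at 1 spot, with 0 other spots of 8-fold difference within 300 µm, and remained at least 2-fold lower under every alternative tried, with the smallest difference, -1.41, after a normexp background correction. Itga2, whose product binds collagen on platelets and other cells, had a signal of 39.7 with DMSO and 4.31 with GW4064, where it was not well above background. It was at least 2.75-fold lower. Its difference was -0.60 after the normexp correction, which draws dim signals together. Both probes for Itga1, the neighbour of Itga2 in the genome, were not well above background on either array.

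Markers of stromal cells were lower on the same array. Of 16 genes listed, 15 were well above background, 14 of these were lower, and their median log2 difference was -0.88. Their summed signal was 39161 with DMSO and 21879 with GW4064, most of it from Sparc, and Lum passed the background call on neither array. The lowest and highest single signals of the list were 18.7 and 22294 with DMSO and 10.9 and 12535 with GW4064. Collagen chains are among these markers, and Col1a2 had a signal of 10058 with DMSO and 5296 with GW4064. In RNA from a whole culture, fewer cells of a type and less RNA per cell cannot be told apart, and the part of stromal cells in the Itga11 value was not tested.

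The leukocyte alpha chains and their partner beta 2 stood within 2-fold. Itgal encodes the alpha chain of LFA-1, which binds ICAMs. Its first probe had a signal of 1013 with DMSO and 687 with GW4064 and its second 675 and 535. Both were lower, with log2 differences of -0.62 and -0.40 and a mean of -0.51, 5.60 times the median SD over spots and lower in every setting. Itgam, the CD11b chain that marks myeloid cells, had 3 probes. Their signals with DMSO and GW4064 were 16711 and 19345, 5753 and 6019, and 202.4 and 230.6, with a mean log2 difference of 0.089, which became -0.10 with spike-in centring. The single probe for Itgax, the CD11c chain, had the highest signal of any member probe, 186594 with DMSO and 159127 with GW4064. Its log2 difference was -0.30, and it lay in a damaged area with 2 other spots of 8-fold difference around it. Itgad, the CD11d chain, had 18.0 with DMSO, which did not pass the background call, and 21.1 with GW4064. The measured difference was 1.12-fold, or 0.17 in log2, which is below the spread of spots this dim. Itgb2, the beta chain shared by all of these, had 61512 with DMSO and 68554 with GW4064. Its log2 difference of 0.091 was near the spot SD of 0.071 and became -0.10 when centred on the spike-in RNA and negative after quantile normalization. Itgam, Itgax and Itgad follow one another in the genome with 0 protein-coding genes between them, and their differences were 0.089, -0.30 and 0.17.

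Chains of the receptors for fibronectin, vitronectin and fibrinogen, which recognise the RGD motif, were lower or nearly unchanged where measured. Itgb1, the beta chain shared by most matrix receptors, is given further on and was near 0, at -0.048. Itga5, the alpha chain of the main fibronectin receptor, had a signal of 1357 with DMSO and 1029.6 with GW4064, a log2 difference of -0.46 that lay between -0.65 and -0.46 over the settings. Itgb3, which pairs with alpha v on macrophages and osteoclasts and with alpha IIb on platelets, had a bright probe at 18528 with DMSO and 11113 with GW4064. That probe gave -0.80 and the dimmer one, at 359 and 309, gave -0.28. The gene mean was -0.54, and the range of 0.52 between its probes was large among genes with several probes, most of which had a range under 0.35. Both probes were lower. Itgav disagreed in a like way. One probe, at 1511 and 1130.1, gave -0.48 and lay in a damaged area with 5 other spots of 8-fold difference, and the other, at 362 and 366, gave -0.050, so that the mean was -0.27 and the value outside damaged areas -0.050. Itgb5, the other vitronectin partner of alpha v, had 43570.3 with DMSO and 37306 with GW4064, a log2 difference of -0.29. Itga8 passed the background call on neither array.

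Itga2b, the alpha IIb chain of the platelet fibrinogen receptor, had a signal of 35.4 with DMSO and 16.8 with GW4064, where it was not well above background. It was 2.21-fold lower by the measured signals, which is not a minimum, and its difference was -0.20 after the normexp correction. Other genes of megakaryocytes and platelets were lower beside it. Of 10 listed, 9 passed the background call on 1 or both arrays and 8 of these were lower, with a median of -0.56. Ppbp, a platelet chemokine, had 454 with DMSO and 150.2 with GW4064, a log2 difference of -1.66. The summed signal of the list was 27696 with DMSO and 33704 with GW4064, the other way, most of it from Pf4, the brightest of them, which had 24612 and 30857. Their part in the Itga2b value was not tested.

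Of the laminin-binding chains, Itga6 was measured and Itga3 and Itga7 were not well above background on either array. The probe for Itga6 had a signal of 14973 with DMSO and 17738 with GW4064. Its log2 difference of 0.18 was 2.52 times the median SD over spots, came from a spot in a damaged area with 6 other spots of 8-fold difference and was -0.012 when centred on the spike-in RNA. Itgb4, the beta partner of alpha 6 in epithelium, had 56.5 with DMSO and 36.8 with GW4064, a log2 difference of -0.68 that lay between -0.87 and -0.26 over the settings.

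The chains of VLA-4, the receptor for VCAM-1 and fibronectin, were nearly the same on both arrays. Itga4 had signals of 6732 with DMSO and 6876 with GW4064 on 1 probe and 98.6 and 105.3 on the other. Its mean log2 difference was -0.0034, and it turned positive, 0.031, after quantile normalization. The probes for Itgb1, the beta chain shared by most matrix receptors, had 7293 and 7334, and 718 and 732, with a mean of -0.048. Both values are below the spot SD of 0.071. Itga9, which pairs with beta 1 and binds tenascin and osteopontin, had 197.8 with DMSO and 137.7 with GW4064, a log2 difference of -0.59, and stayed between -0.78 and -0.47 over the settings.

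Itgb7 was the integrin chain with the largest increase. It joins alpha 4 or alpha E in receptors for gut homing and for E-cadherin. Its signal was 466 with DMSO and 681 with GW4064, a log2 difference of 0.48, exceeded by 5.84% of all measured genes. It remained higher in the 11 settings that measured it, between 0.29 and 0.49, but the single spot lay in a damaged area with 5 other spots of 8-fold difference, so that no value was left without those areas. Itgb6 and Itgb8, the partners of alpha v in epithelium and other tissues, were not well above background on either array.

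The immunoglobulin-type counter-receptors went in both directions. Icam1, a ligand of LFA-1 and Mac-1 that inflammatory signals induce, had 361 with DMSO and 294.6 with GW4064, a log2 difference of -0.36 that was negative in every setting. Icam2, the ligand of LFA-1 found on resting endothelium and leukocytes, had 4777 with DMSO and 5189 with GW4064. Its log2 difference of 0.054 was below the spot SD and turned negative with spike-in centring and with the normexp correction. Pecam1, the junctional molecule CD31, had 127.8 with DMSO and 99.9 with GW4064, a log2 difference of -0.42 from a spot in a damaged area with 6 other spots of 8-fold difference. The probes for Vcam1, the counter-receptor of VLA-4, disagreed in direction. One had 121.3 with DMSO and 112.2 with GW4064 and gave -0.18. The other, in a damaged area, had 12.9 with DMSO, below the background call, and 24.9, at least 1.51-fold higher. The mean of 0.21 therefore turned to -0.18 wherever the second probe was left out.

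The selectins were the members with the largest increases. Selp encodes P-selectin, which is stored in platelets and endothelium and shown on their surface after activation, and its probe was printed 10 times on each array. With DMSO the signals of the 10 spots ran from 13.6 to 27.4 with a median of 21.1, and 6 of them were well above background. With GW4064 they ran from 44.7 to 66.5 with a median of 60.2, and all 10 were well above background. The lowest GW4064 spot was brighter than the highest DMSO spot, so the spots of the arrays did not overlap. The log2 difference was 1.41 with an SD of 0.21 over the 10 copies, from 1.08 to 1.75, or 2.66-fold. The copies share 1 RNA sample per array, so this SD says nothing about other cultures. The value was 0.41 after the normexp correction and 1.22 or more in all other settings.

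**Figure D3:**
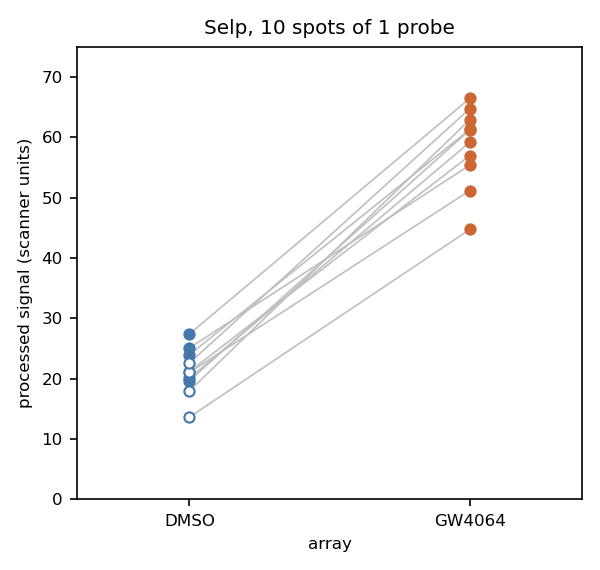
Processed signal, in scanner units, of the 10 spots of the Selp probe on the DMSO and GW4064 arrays, with lines joining the spots at the same place. Filled circles are spots well above background and open circles are not. The GW4064 spots run from 44.7 to 66.5 and lie above every DMSO spot.

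Sele, or E-selectin, known from activated endothelium, did not pass the background call with DMSO at a signal of 4.06 and had 38.5 with GW4064, at least 2.34-fold higher. It was read at 1 spot in a damaged area, with 3 other spots of 8-fold difference within 300 µm, and normexp reduced its log2 difference to 0.15. Of 12 endothelial markers, 10 were well above background, 4 were higher, 6 lower and 0 past 2-fold, with a median of -0.080. Their signals ran from 31.3 to 16904 with DMSO and from 21.1 to 16204 with GW4064, and their sums, most of them Vwf and Flt1, were 32088 and 35888. Among these markers Cdh5, at 49.5 and 44.5, and Kdr, at 1498 and 1588 in a damaged area, were well above background on both arrays. Tek and Tie1 were not well above background on either array.

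Selplg, which encodes the leukocyte ligand of P-selectin, went the other way from Selp. Its probes had 12690 with DMSO and 11103 with GW4064, and 3570 and 2924, with log2 differences of -0.26 and -0.35. The mean of -0.31 was 4.30 times the median SD over spots. Cd44, the hyaluronan receptor, had 4 probes. Those with DMSO signals of 23688, 9759 and 296 gave -0.33, -0.21 and -0.27, and the dimmest, at 74.8 with DMSO and 82.0 with GW4064, gave 0.067. The mean was -0.19.

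The size of the differences varied with the signal level. Of the 13 members with a probe over a signal of 1000 as the mean of both arrays, 9 were lower and 4 higher, all between -0.54 and 0.18. Beyond 2 times the median SD over spots, 0.14, were 7 that were lower (Itgax, Itga5, Itgav, Itgb3, Itgb5, Selplg and Cd44) and 1 that was higher (Itga6), and 5 lay within it. Of these 8, Itgax and Itga6 had no value outside damaged areas, Itgav was -0.050 there, and Itga6 was -0.012 with spike-in centring. This SD holds no spread between cultures. The scanner software's own error for the log2 difference was larger, 0.20 for the brightest probe of each of these 8. At that level 0.42% of all genes were 2-fold or more higher and 0.19% lower. Under a signal of 30 these shares were 10.8% and 13.8%, and from 30 to 100 they were 3.64% and 7.47%. Sele, Itga2 and Itga2b fell in the former range, with Itgad, and Selp and Itga11 in the latter, with Itgb4.

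**Figure D4:**
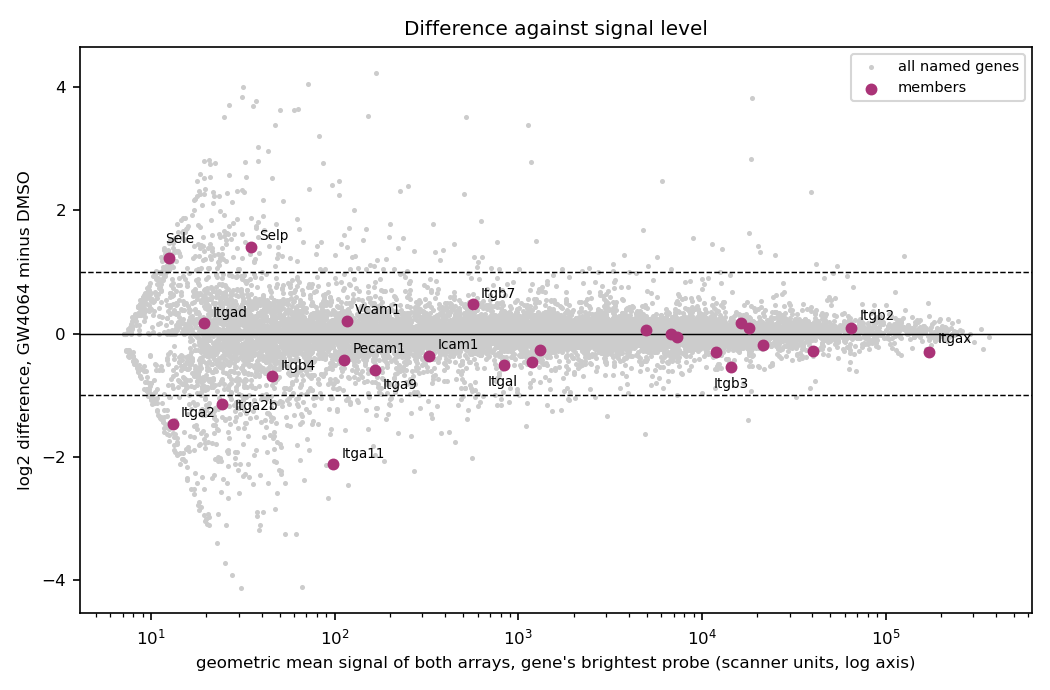
Log2 difference against signal level for all 13532 measured genes (grey) and the 26 members (purple). The level is the geometric mean of both arrays for the brightest probe of a gene, on a log axis in scanner units, dashed lines mark 2-fold, and names are left off most points over 1000. The members past 2-fold lie under a level of 100, where the grey points scatter most.

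Genes that work with these molecules were taken as 5 lists. Of 48 genes that activate integrins or link them to actin, 44 were measured, 22 higher and 22 lower, with a median of 0.0097. Talin (Tln1) had 126317 with DMSO and 153147 with GW4064 on its brighter probe and a mean log2 difference of 0.26 over 2 probes, and the leukocyte kindlin Fermt3, in a damaged area, had 8920.2 and 9877, a difference of 0.081. Past 2-fold were Src, which was higher, and Fermt2 and Parva, which were lower. This made 2.27% higher and 4.55% lower, against 2.04% and 2.71% of all measured genes. Among dim genes such as these, both shares of all genes were larger, as given above. Src, a kinase at focal adhesions, had 15.7 with DMSO and 38.2 with GW4064, a log2 difference of 1.21. Its DMSO signal was the lowest one called on that array. After the normexp correction Src gave 0.45, Fermt2 -0.54 and Parva -0.40, all within 2-fold. Fermt2, the kindlin of non-blood cells, had 77.0 with DMSO and 34.6 with GW4064 on its brighter probe, a log2 difference of -1.22, and its other probe is a bound of -1.01, so that the mean of -1.12 is a bound as well. Parva, which links integrins to actin through the ILK complex, gave a mean of -1.13 over 2 probes and had 72.3 and 33.3 on its brighter probe. Parvg, the parvin of blood cells, had 549 and 883, a log2 difference of 0.62. Bcar1 gave -0.65. Arhgap26 had a mean of 0.58, but its brighter probe, at 554 and 637, gave 0.14 and the dimmer one, at 24.3 and 51.8, gave 1.02, and the mean was 0.11 after the normexp correction.

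Of 43 integrin ligands, 35 were measured, and 26 of these were lower, 74.3% against 48.2% of all measured genes, with a median of -0.37. Past 2-fold were 4, or 11.4% against 2.71% of all measured genes. The 4 were Jam2, Postn, Jam3 and Ccn1, all lower. Jam2, a junction molecule that binds VLA-4, had 112.2 with DMSO and 12.8 with GW4064, not well above background, at least 7.76-fold lower. Periostin (Postn) had 891 and 431, a log2 difference of -1.11, and Ccn1 had 697 and 361, a difference of -1.02. Jam3, at 51.9 and 25.7, gave -1.08 from a damaged area. Osteopontin (Spp1), a bright ligand of alpha v beta 3 and alpha 9 beta 1, had 72132 with DMSO and 103710 with GW4064, a log2 difference of 0.46 that stayed between 0.27 and 0.46 over the settings. Nid1 had 0.47 as a mean, but its probes disagreed, and the brighter one gave -0.27. Emilin1 gave 0.17 and -0.017 with spike-in centring. Of these ligands 4 are also in the list of stromal markers. Among the 31 measured that are not, 22 were lower, with a median of -0.27.

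Of 21 genes for selectins, their scaffolds and the enzymes that build selectin ligands, 16 were measured, 9 higher and 7 lower, with a median of 0.0083. Podxl, a sialomucin of the CD34 family, was 4.88-fold lower by the measured signals, with 84.4 with DMSO and 18.1, not well above background, with GW4064. Gcnt1, which makes the core glycan of PSGL-1, had 7299 and 5221 on its brighter probe, which lay in a damaged area with 8 other spots of 8-fold difference. Its mean log2 difference was -0.54 over 2 probes. Fut7, which adds the fucose that selectins need, had 2368 and 1889 on its brighter probe and a mean difference of -0.42 over 2 probes. Gcnt1 and Fut7 were both lower in every setting. St3gal6 at 0.41, Cd24a at 0.32, Fut4 at 0.32 in a damaged area and St3gal4 at -0.26 were the others of largest difference.

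Of 25 genes for hyaluronan and CD44, 15 were measured, 9 higher and 6 lower, with a median of 0.085. Stab2, a scavenger receptor that clears hyaluronan, had 1179 with DMSO and 2545 with GW4064, a log2 difference of 1.05, and kept 1.02 after the normexp correction and 0.85 with spike-in centring. Its relative Stab1 had 6890.3 and 9565, a difference of 0.41. Spam1 was at least 2.53-fold higher from 4.66 and 41.7, in a damaged area. Lyve1, another hyaluronan receptor, was at least 2.56-fold lower from 37.0 and 3.69, and the synthase Has3 was lower by 1.12 on the log2 scale (-1.12) from 43.9 and 21.2. Ezr at -0.38 in a damaged area and Hyal1 at 0.35 stayed within 2-fold. Vcan had a mean of -0.46 over 3 probes, of which 2 are bounds, its brightest probe gave -0.088, and it ran from -1.01 to -0.088 over the settings.

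Of 34 other adhesion molecules, 29 were measured, 11 higher and 18 lower, with a median of -0.14. Siglec1, the sialic acid receptor CD169 of macrophages, was the 1 past 2-fold, with a mean of 1.39. Its probe measured on both arrays had 169.8 and 288.3, a log2 difference of 0.70, and the other had 9.14, below the background call, and 69.8, a log2 difference of at least 2.08. The tetraspanin Cd53 had 10054 with DMSO and 20239.5 with GW4064, a difference of 0.94, and Ninj1 had 39082 and 59625, a difference of 0.54. L1cam at -0.98, Nectin1 at -0.79 and Cd2 at -0.73, the last in a damaged area, were the largest decreases. Over all 5 lists, 5 of 139 measured genes (3.60%) were 2-fold or more higher and 9 (6.47%) lower, against 2.04% and 2.71% of all measured genes. The median of the 139 was -0.064. Most of the genes past 2-fold had mean signals under 100, where the shares of all genes were larger, as given above. After the normexp correction 2 genes of these lists were past 2-fold, where 0.53% of all measured genes were higher and 0.47% lower.

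Markers of granulocytes and mast cells were lower as well, all 8 of the 8 measured among 12, with a median of -0.78, 0 past 2-fold and sums of 13822 and 8944. Their single signals ran from 37.9 to 8136 with DMSO and from 21.7 to 4614 with GW4064. Among the mast cell genes of the list, Cpa3, Fcer1a and Ms4a2 were not well above background, while Mcpt4, at 38.8 and 21.7, gave -0.91 and Kit, at 37.9 and 23.8, gave -0.74. Of 12 lymphocyte markers, 6 were measured, 4 lower and 2 higher, with a median of -0.53. Past 2-fold were 2, both lower, or 33.3% against 2.71% of all measured genes. They were Ms4a1, at 35.8 with DMSO and 7.08 with GW4064, and Klrb1c, at 175.4 and 12.3 on its brighter probe. Neither GW4064 signal was well above background. Among dim genes the share that was lower was larger, 13.8% under a signal of 30 and 7.47% from 30 to 100. Cd3e, at 209.0 and 248.5, Cd79b, at 281.9 and 236.4, and Lck, at 163.5 and 172.0, were well above background on both arrays. Cd3d, Cd3g, Cd79a, Cd8a and Ncr1 were not well above background. Of 8 dendritic cell markers, 5 were measured, 3 lower and 2 higher, with a median of -0.041. Flt3, at 10.5 with DMSO, below the background call, and 81.5 with GW4064, was at least 4.94-fold higher in a damaged area. Zbtb46 gave a mean log2 difference of 0.44, Siglech, the brightest, -0.041, Kmo -0.35 and Ccr7 -0.60. The part of these cells in the values of Itgal, Selplg or Itgb7, which leukocytes of several kinds express, was not tested.

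**Figure D5:**
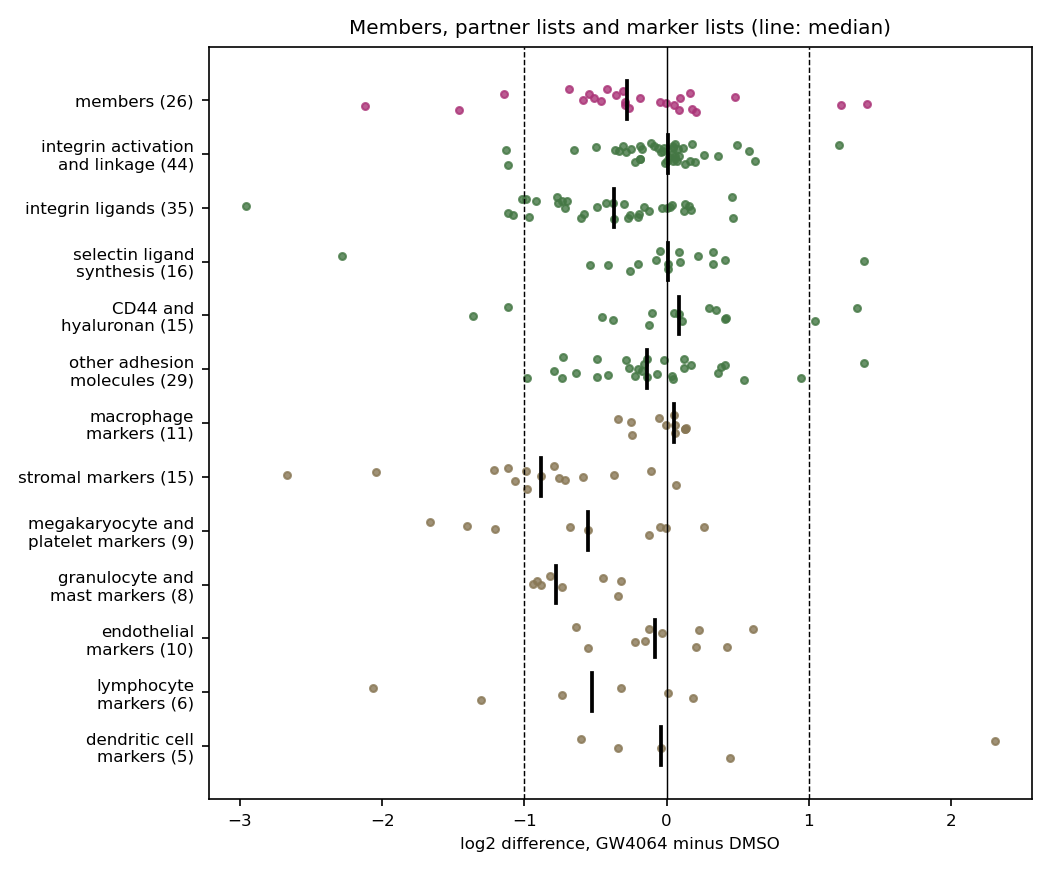
Log2 difference, GW4064 minus DMSO, of each measured gene among the members (purple), the 5 lists of partner genes (green) and the cell type markers (brown), with the number of genes in brackets. Black lines are medians and dashed lines mark 2-fold. The medians of the members (-0.28), the integrin ligands (-0.37) and the stromal markers (-0.88) lie below 0, and those of the integrin activation genes and macrophage markers lie near it.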

How the data were processed

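Gene expression was measured in 2 samples of BMDMs, on 1-colour Agilent mouse arrays that shared a slide and a scan. The authors deposited the intensity of each spot from Agilent Feature Extraction 10.7.1.1 (the version per the submitters' processing notes), with background and trends within the array removed and no scaling between arrays. A table of log2 values that the authors deposited gave the same differences between columns, apart from a constant of -0.0022. Its baseline per probe is not known. The free text of the GW4064 sample repeats that of the DMSO sample, and its title, source and treatment were followed.

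The log2 signal minus the 75th percentile of each array was used. Spots marked as uneven or as outliers were left out and copies averaged, which left 39200 of 39429 probes. Of these, 57.4% with DMSO and 58.5% with GW4064 were well above background, from lowest signals of 15.7 and 15.1. For a probe that only 1 array measured, the other array's value was that floor, or the measured signal if this was above it. A gene is the mean of its measured probes, named through RefSeq transcripts of GRCm38.p6. The arrays were designed on another build, so no coordinates are given. No test was possible with 1 array per condition, and 2-fold was the threshold. The members, the gene lists, the settings and the rule for names were chosen with earlier results of these data known. The rule named all members, list genes past 2-fold, and the 3 largest differences each way per list among probes above background on both arrays; marker genes were named as examples. Some genes of these lists are not reported here. The calculation was tested on simulated data in which only brighter probes were changed and the noise was the same at every level. That test does not cover changes in dim probes or bounds. The normexp correction came from limma 3.58.1 in R 4.3.3. All else was done in Python 3.11.15 with pandas 2.3.3 and numpy 2.4.6, the search for nearby spots with scipy 1.17.1, the loess curve with statsmodels 0.14.6, and the plots with matplotlib 3.10.9.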

Additional observations from a re-analysis of the deposited data

How the results depend on the processing

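The alternatives were centring on a loess curve, on 8 spike-in probes or on the median of measured probes, quantile normalization, the deposited log2 table, normexp (offset 50), marked spots kept, other filters on dim probes, the brightest probe of a gene, damaged areas left out, and thresholds of 1.5-fold and 4-fold. Naming probes by a gene name column was not run, since the files used here hold accessions. No paired analysis was possible because a group holds 1 array and nothing can be paired.

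The members 2-fold or more higher (2) and lower (3) and the partner genes past 2-fold (14) moved as follows. Normexp gave 0 and 1 members and 2 partner genes, and only probes above background on both arrays gave 1 and 1 members and 8 partner genes. At 1.5-fold 5 members were lower and 31 partner genes passed, and at 4-fold 0 and 1 members and 2 partner genes did. Without damaged areas 1 member was higher, since the only spot of Sele was lost. The member median moved from -0.28 to -0.47 with spike-in centring. Without any filter on dim probes 4 members were lower, Itgb8 among them. Of 277 values of single members under the alternatives, 236 moved by less than the spot SD at their level, 41 by more, and none of the 5 members past 2-fold changed direction. A sign change was seen for 6 members, all under 2-fold. Dim signals limit Sele, Itga2, Itga2b and Selp most. The normexp offset of 50 is added to every signal, which draws dim signals together. How much of the normexp shift came from the offset was not tested.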
